A study of Homo sapiens with 36 samples.

Results

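The genes that encode the machinery writing N6-methyladenosine (m6A) are themselves transcribed into methylated RNA, and the data described here are the methylated adenosines mapped inside their transcripts. The members are 9 genes: METTL3, METTL14, WTAP, VIRMA, RBM15, RBM15B, ZC3H13, CBLL1 and METTL16. Every row carrying one of these symbols in the 3 deposited tables was taken, with VIRMA listed there under its older symbol KIAA1429. They held 134 of 57011 sites in HEK293T, 48 of 22855 in BE(2)-C without ATRA and 36 of 21031 in BE(2)-C with ATRA. These 218 rows came to 182 distinct positions in 8 of the 9 genes, out of 9343 genes with a site in any table.

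METTL3 is the catalytic subunit of the nuclear m6A methyltransferase and METTL14 is the partner that helps it grip RNA. WTAP is the adaptor that brings this pair to nuclear speckles and to the rest of the complex, VIRMA is the large scaffold, ZC3H13 holds the regulatory subunits in the nucleus, RBM15 and RBM15B bind RNA directly, and CBLL1 (also called HAKAI) is an E3 ubiquitin ligase in the same assembly. The complex methylates internal adenosines, mostly in the DRACH context (D is A, G or T, R is A or G, H is A, C or T), and is known for marking long internal exons and the region around stop codons. METTL16 is not a subunit. It is a separate methyltransferase that acts on the U6 spliceosomal RNA and on hairpins in the MAT2A transcript. PCIF1, the enzyme targeted in this study, methylates a further position, the adenosine next to the mRNA cap, which gives m6Am.

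The study used m6ACE, in which an antibody against N6-methylated adenosine is crosslinked to RNA and an exonuclease trims the RNA to the crosslink, so that m6A and m6Am are both placed at single-base resolution. BE(2)-C, a human neuroblastoma line, was transfected for 24 hours with an siRNA to PCIF1 (siPcif1) or with a scrambled one (siScram), and was kept without ATRA or with 10 µM ATRA (all-trans retinoic acid, which drives these cells to differentiate) for 4 days. HEK293T, a human embryonic kidney line that carries the SV40 large T antigen, was given the same pair of siRNAs according to its labels, which otherwise repeat the text written for BE(2)-C. Each of the 6 m6ACE groups had 3 libraries and each was matched by a group of input libraries, 36 samples in all, and nothing in the labels says whether the 3 libraries came from separate cultures. Each line is thus a single genetic background, and p-values measure the spread between these libraries, which may be technical.

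The deposited value for each site and library is a relative methylation level (RML), a ratio. The sources used here give neither its formula nor its scaling, and the read depth behind it is unknown. It is no measure of transcript level, so neither the knockdown of PCIF1 nor the expression of the writer genes can be read from it. Levels in different tables were not normalized together and are only set side by side. Changes are differences of log2(RML + a small pseudocount), siPcif1 minus siScram, so that a negative change means a lower level with siPcif1. They were tested by limma within each table, with p-values adjusted over all its sites at a threshold of 0.05. Over all sites the median change was -0.08 in HEK293T, -0.43 in BE(2)-C without ATRA and 0.12 in BE(2)-C with ATRA, and changes of the members are read against these shifts.

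Only METTL3 and WTAP had sites annotated to the 5'UTR. The sequences around their RefSeq transcript starts (GRCh38.p14) are shown because the cap-adjacent adenosine is the position that PCIF1 methylates. The METTL3 stretch is chr14:21511321-21511348 on the minus strand and the WTAP stretch is chr6:159727109-159727136 on the plus strand. Both run 5' to 3', from 8 bases before the start through the first 20 bases of the transcript, and capitals mark the adenosines listed as methylated in HEK293T.
METTL3: caggggtcAttttccggttAgccttcgg
WTAP: ccctcggccgcttcccttActgagcttg
The METTL3 stretch has its marked adenosines at +1, the RefSeq start itself, and at +12. The single marked adenosine of WTAP lies at +11 of the start shown, where the base at +1 is a C. RefSeq has a further WTAP start at 159727506, also a C. Positions from a start are counted throughout from the nearest RefSeq start of the gene. Of the other genes, METTL14, METTL16, CBLL1 and ZC3H13 have an A at their RefSeq start and RBM15 and RBM15B a G, and none of them had a 5'UTR site in any of the tables. An A stands at 44.4% of the 35116 starts in the RefSeq table. The positions in the files were checked against these sequences, and the 5-base motif of the file matched the RefSeq bases at 10737 of 10737 5'UTR sites that fell within the promoter windows.

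METTL3 carried the largest change among the writer genes, a lower level with siPcif1 at the start of its transcript. At the +12 adenosine (position 21511329 of chromosome 14), the RML in HEK293T was 8.01, 15.2 and 33.3 with siScram and 1.89, 2.54 and 4.50 with siPcif1. Every siPcif1 library lay below every siScram library, although the siScram libraries themselves spread widely. The means were 18.8 ± 13.0 and 2.98 ± 1.36 (SD, n = 3), a change of -2.39 ± 0.57 (SE) on the log2 scale with a limma adjusted p of 0.185, which misses the threshold. The exact two-sided permutation test of 3 libraries against 3 gave p = 0.1, the smallest value that this design allows.

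The adenosine at the RefSeq start itself (+1, position 21511340) was listed in both HEK293T and BE(2)-C without ATRA. In HEK293T its RML was 10.7, 22.8 and 14.9 with siScram and 2.45, 2.69 and 10.6 with siPcif1. The groups again did not overlap, but 1 siPcif1 library reached nearly the level of the lowest siScram library. In HEK293T the authors called this adenosine in siScram alone (DESeq2 p 2.24e-05, and 0.0567 for siPcif1). It was thus listed there only through the group in which it was high. The change was -1.81 ± 0.59 (SE), with a limma adjusted p of 0.271. Without ATRA, BE(2)-C had an RML at +1 of 26.1, 26.7 and 11.8 with siScram and 1.06, 6.03 and 9.94 with siPcif1. Here it fell by 2.13 on the log2 scale (SE 0.49), from 21.5 ± 8.41 to 5.68 ± 4.45 (SD, n = 3), with a limma adjusted p of 0.00428. This was the only writer-gene site in any table to pass the threshold. In the authors' deposited table the site was called in siScram alone (p 0.0446, with no p for siPcif1), so it was listed only through the group in which it was high. The limma call was lost when each library was centred on its median, where the change was -1.65 with an adjusted p of 0.244, in a fit without a variance trend (adjusted p 0.135), with the authors' deposited p doubled (adjusted p 0.368), and when siScram replicate 2 (adjusted p 0.0989) or siPcif1 replicate 1 (adjusted p 0.441) was left out. At both adenosines the direction was the same in every one of these fits, and the exact permutation p was 0.1 in each table. The METTL3 start was not among the sites listed for BE(2)-C with ATRA.

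Deeper in the METTL3 transcript the mean levels with siScram were lower than at the start, and the groups overlapped. The 3 further 5'UTR sites of HEK293T, at +72, +87 and +101, had mean RML with siScram of 1.01 ± 0.249, 0.547 ± 0.270 and 0.612 ± 0.421 (SD, n = 3). Their changes were -0.08, 0.05 and -0.02, with limma adjusted p of at least 0.949. Among the coding sites the strongest was a DRACH site with the motif ggAct at position 21503382. Its RML in HEK293T was 2.46, 3.37 and 2.70 with siScram and 1.94, 3.76 and 3.46 with siPcif1, a change of 0.06 ± 0.39 (SE). The same adenosine in BE(2)-C without ATRA had 2.06, 2.37 and 3.39 with siScram and 1.31, 2.08 and 1.53 with siPcif1, a change of -0.53 (limma adjusted p 0.243), which is -0.05 after centring on library medians. In BE(2)-C it was called by the authors in siScram alone, and so listed only through the group in which it was high. The other coding sites of METTL3 in HEK293T, at 21499514 and 21503300, had the lowest levels of the gene, 0.354 ± 0.119 and 0.366 ± 0.218 with siScram.

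**Figure D1:**
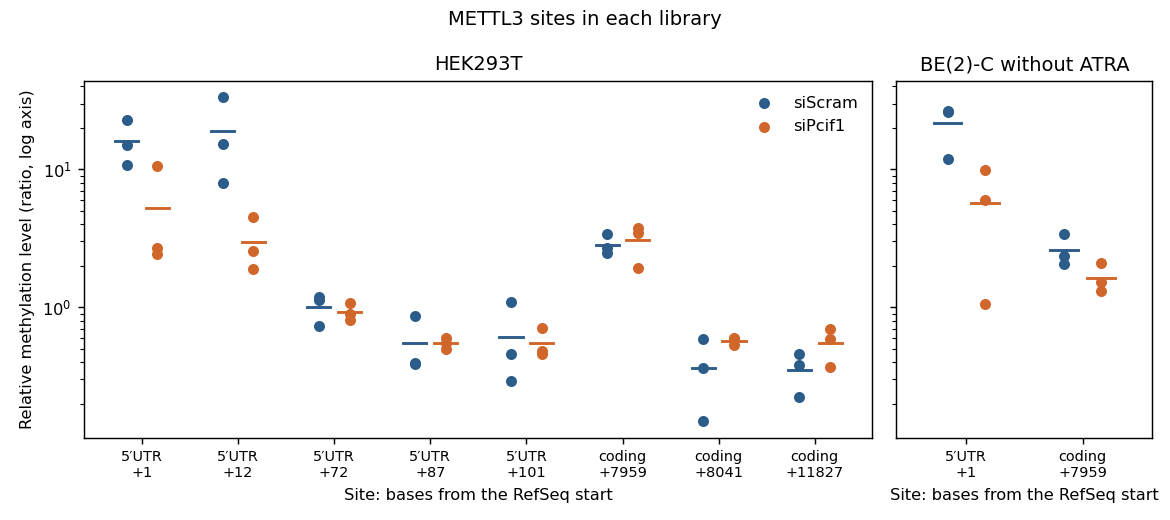
Relative methylation level (log axis) of each METTL3 site in each library, in HEK293T and in BE(2)-C without ATRA. Points are libraries and bars are group means of 3, and sites are named by region and genomic bases from the RefSeq start. The groups separate at +1 and +12, where the siScram levels run from 8.01 to 33.3, and overlap at every other site.

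The lowering at the METTL3 start can be set beside all start sites of the same tables. In HEK293T, 1695 of the 9685 5'UTR sites whose gene had a RefSeq start on the same strand lay at +1 (17.5%) and their median change was -0.77, while the 258 sites at +11 or +12 had a median of -0.66. For BE(2)-C without ATRA the 418 sites at +1 (25.1% of 1664) also had a median of -0.77, and in BE(2)-C with ATRA the 442 sites at +1 (27.5% of 1605) had a median of -0.18. The METTL3 changes of -2.39, -1.81 and -2.13 are larger in size than these medians, which cover sites of every level. Over all 5'UTR sites the changes reached -3.60 in HEK293T and -2.81 in BE(2)-C without ATRA, and METTL3 was not ranked among them. METTL3 at +12 ranked at the 96th percentile of mean RML in its table, METTL3 at +1 at the 96th in HEK293T and at the 98th in BE(2)-C without ATRA. Over the 6 HEK293T libraries, the 5'UTR sites whose log2 levels followed the +12 site most closely lay in PLAGL1 (r = 0.996), HMGN1 (0.996), LOC107987205 (0.993), COPG1 (0.992) and DYNC1LI2 (0.991). These 6 libraries were 3 with siScram and 3 with siPcif1, and 624 of 12369 5'UTR sites had r of at least 0.9. The cause of this likeness was not tested.

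WTAP, the other gene with a 5'UTR site, had a change near 0 with a wide spread. Its +11 adenosine (position 159727127 of chromosome 6, motif ttAct) had an RML in HEK293T of 3.05, 4.05 and 3.80 with siScram and 11.8, 1.12 and 4.16 with siPcif1. A single siPcif1 library was the highest of all 6 and another the lowest, so the groups overlapped fully. The change was 0.12 ± 0.67 (SE, limma adjusted p 0.976), and -0.63 without siPcif1 replicate 1. Over the 6 writer-gene 5'UTR sites of HEK293T the median change was -0.05, against -0.65 for all 12374 5'UTR sites, and 3 of the 6 were the low METTL3 sites further into the transcript.

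Across the writer genes few sites changed beyond what was seen in the whole tables. In HEK293T 0 of 134 member sites passed the adjusted threshold, as did 0 of all sites (0%). At an unadjusted limma p of at most 0.05, 5 member sites were lower (3.73%) and 6 higher (4.48%), where the whole table had 9.31% lower and 2.79% higher. These shares cover unlike sites. Of the 134 member sites 128 were internal, whereas the whole table held 12374 5'UTR sites, of which 86.1% had a negative change. The shares were not computed over internal sites alone. Of the 48 member sites of BE(2)-C without ATRA 1 passed (2.08%, against 3.71% of all sites), and at the unadjusted level 14 were lower (29.2%, against 26.2%) and 0 higher (against 0.0788%). The count of 1 became 6 with the replicate number as a block. Correlations over sites did not pair the libraries by number, but they cannot show a shift common to all sites of a library. When single libraries were left out the count ran from 0 to 27. It was 27 without siScram replicate 1 and 0 without siScram replicate 2 or siPcif1 replicate 1. Of the 36 with ATRA 0 passed (0% of all sites), 0 were lower at the unadjusted level (against 0.842%) and 1 was higher (2.78%, against 2.03%). In BE(2)-C without ATRA the fit shared the variance wholly between sites, so its calls are optimistic.

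Away from the transcript start the median change of internal sites (coding and 3'UTR) was 0.15 over 128 sites in HEK293T, where all internal sites had 0.01. It was -0.57 over 47 sites in BE(2)-C without ATRA, where all internal sites had -0.41 and 95.8% of them were negative. With ATRA it was 0.24 over 36 sites, against 0.14. After centring each library on its median the writer-gene medians were 0.28, -0.08 and 0.08, against 0.13, 0.07 and -0.02 for all internal sites. In both BE(2)-C tables these had opposite signs, but the sites had entered the tables unequally. Without ATRA 70.8% of the writer-gene sites were called in siScram alone, against 50.1% of all sites. With ATRA 69.4% were called in siPcif1 alone, against 40.4%. The medians thus rest in part on sites chosen by the direction of their change, and no conclusion is drawn from their difference. The sites of these genes share transcripts, so they are not independent of each other and no test over the list was made.

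**Figure D2:**
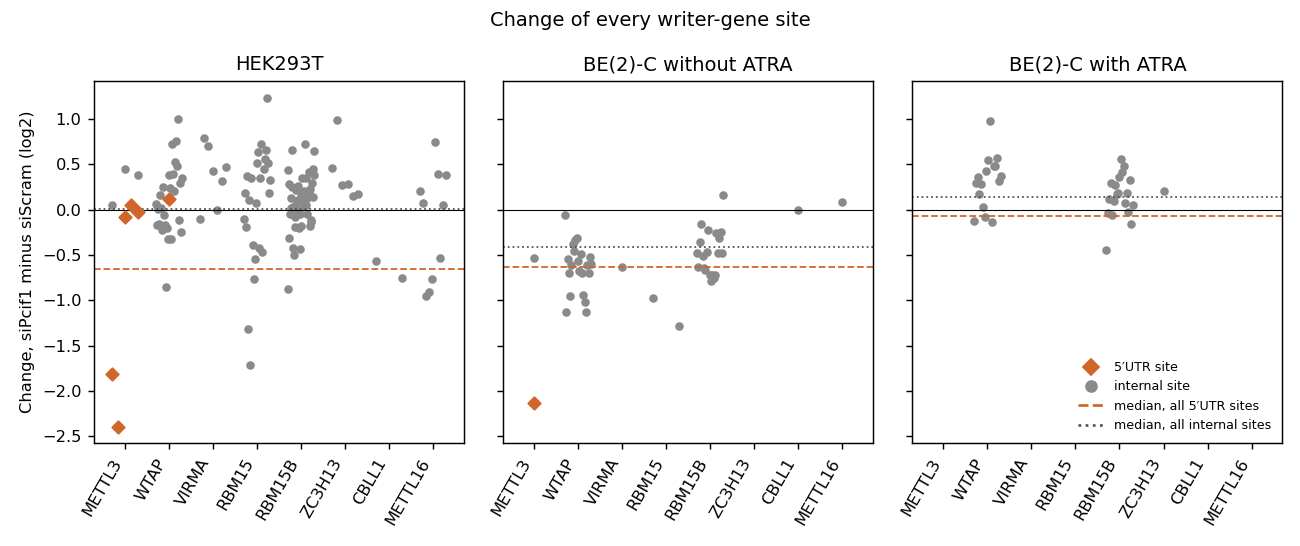
Change of every writer-gene site (siPcif1 minus siScram, log2 scale) by gene, with 5'UTR sites as diamonds and internal sites as circles, spread along the gene from left to right. Lines give the median change of all 5'UTR sites and of all internal sites of the table. The METTL3 start sites at -2.39, -1.81 and -2.13 lie below every other site shown, and the remaining sites scatter around the line for internal sites.

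WTAP held 28 sites in HEK293T, 21 in BE(2)-C without ATRA and 16 with ATRA. Its internal sites fell into blocks by position and annotation, a coding block ending at 159748340, a block annotated as 3'UTR from 159748397 to 159748891, and a later coding block from 159755097 to 159755409. The 3'UTR-annotated sites thus lie upstream of the later coding sites, and the files do not name the transcript that the annotation followed. In HEK293T the 9 sites of the 3'UTR block had a median change of -0.16, and the 11 later coding sites a median of 0.40, with 9 of these 11 higher with siPcif1. Over all coding sites of HEK293T 48.6% were lower. Of the later coding sites, 159755133, 159755145, 159755244 and 159755248 were called by the authors in siPcif1 alone, so they were listed only through the group in which they were high. The site 159755261, called in siScram alone, was lower with siPcif1. The per-library median RML of the later coding block was 1.40, 1.17 and 1.00 with siScram and 1.29, 1.68 and 1.64 with siPcif1, so the groups overlapped. For the 3'UTR block it was 0.987, 0.721 and 0.960 with siScram and 0.864, 0.759 and 0.971 with siPcif1, again overlapping. The blocks were set after the values had been seen, and the difference between them was not tested.

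All 21 WTAP sites of BE(2)-C without ATRA were lower with siPcif1, with block medians of -0.65, -0.37 and -0.68 in the same order, in a table where 95.6% of all sites were lower, and 19 of the 21 were called by the authors in siScram alone. After centring on library medians the block medians were -0.17, 0.11 and -0.20. The highest WTAP levels of the series were here, at the start of the first coding block. At 159748197 (motif aaAtc) the RML was 17.0, 45.0 and 17.2 with siScram and 7.95, 13.7 and 10.8 with siPcif1. Every siPcif1 library lay below every siScram library, but the change of -1.13 had a limma adjusted p of 0.187. Its DRACH neighbour at 159748191 (agAct) had 6.52, 30.0 and 13.3 with siScram and 8.74, 8.44 and 31.5 with siPcif1, with the highest value in a siPcif1 library and a change of -0.05. Neither adenosine was listed in the other tables. In the later coding block the smallest p was at 159755177 (gcAgg), where the RML was 3.84, 6.78 and 9.67 with siScram and 1.90, 3.86 and 2.43 with siPcif1. The groups met at their edges, and the change was -1.13 ± 0.39 (SE) with a limma adjusted p of 0.0691.

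With ATRA 13 of the 16 WTAP sites were higher with siPcif1, in a table where most sites were. By the authors' deposited p-values 13 of the 16 were called in siPcif1 alone, so these entered the table only through that group. The smallest p was at 159755142 (gcAgc). Its RML was 0.806, 1.71 and 1.65 with siScram and 5.27, 3.43 and 2.28 with siPcif1, without overlap, and the change of 0.98 ± 0.33 (SE) had an unadjusted limma p of 0.00801 and an adjusted p of 1.00. This site, too, was called in siPcif1 alone. Without ATRA the same adenosine had 2.04, 3.71 and 3.18 with siScram and 1.27, 1.74 and 3.08 with siPcif1, a change of -0.49. One DRACH site, 159755248 (ggAcc), went in opposite directions in the tables that list it. It was 1.11, 0.165 and 0.643 with siScram and 1.05, 1.20 and 2.16 with siPcif1 in HEK293T, a change of 1.00 (limma adjusted p 0.357), and 1.86, 3.20 and 1.56 with siScram and 0.894, 1.25 and 1.24 with siPcif1 in BE(2)-C without ATRA, a change of -0.69 (adjusted p 0.120). It was called by the authors in siPcif1 alone in HEK293T and in siScram alone in BE(2)-C, so each table listed it through the group in which it was high. The HEK293T groups overlapped and those of BE(2)-C did not, and since the tables were scaled separately the contrast between them was not tested.

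**Figure D3:**
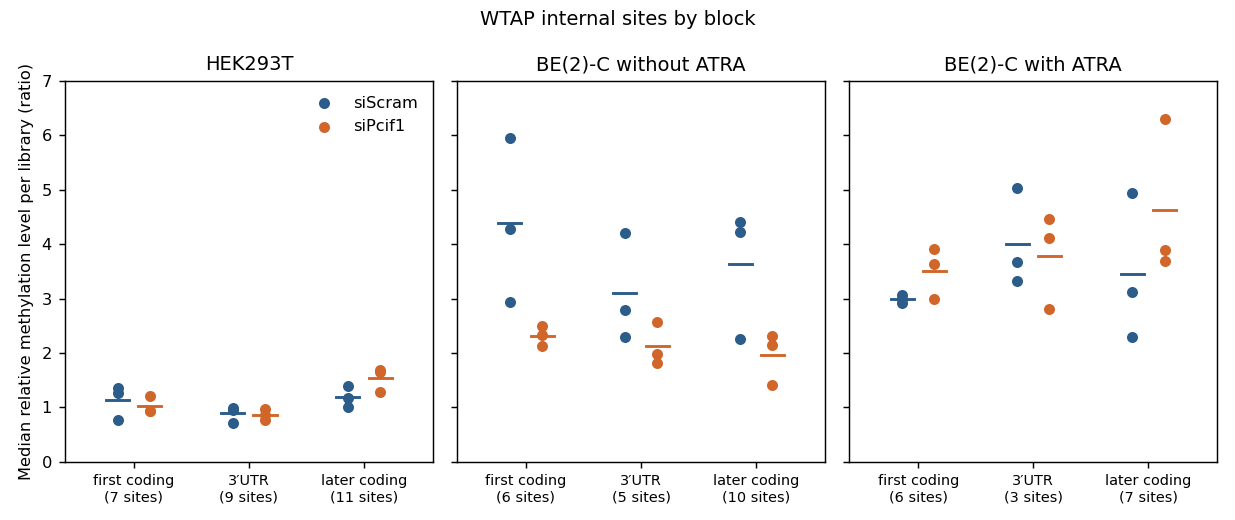
Median relative methylation level over the internal WTAP sites of each block, with a point for each library and a bar for the mean of the 3 libraries of a group, in the 3 tables. The siPcif1 means lie below the siScram means in all blocks of BE(2)-C without ATRA, and the points of the groups overlap in all blocks of HEK293T.

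RBM15B, an RNA-binding subunit, had more sites than any other writer gene in HEK293T and with ATRA. It had 48 sites in HEK293T, where only 30 genes had at least as many and the median gene had 4. It had 20 in BE(2)-C without ATRA and 19 with ATRA, and all but 1 of its sites were coding. In HEK293T 22 of its 48 sites were DRACH. The highest level there was at 51392290 of chromosome 3 (ggAct), 1006 bases from the RefSeq start, with an RML of 9.60, 12.5 and 10.4 with siScram and 6.49, 5.57 and 17.4 with siPcif1. The last siPcif1 library was the highest of all and the others the lowest, so the change of -0.31 ± 0.51 (SE) was within the spread. The next in level were 51394013 (ggAca) with 7.81 ± 1.47 and 51393040 (gaAgg) with 7.90 ± 1.30 (SD, n = 3), both with siScram.

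RBM15B also supplied most of the positions found in every table. Of the 7 writer-gene positions listed in all 3 tables, 6 were in RBM15B (51392290, 51392313, 51392631, 51393012, 51393029 and 51393040) and 1 in WTAP (159748714). The DRACH site 51393029 (ggAct) had the largest change of the 7 with ATRA. In HEK293T it had 4.41, 7.59 and 7.18 with siScram and 5.37, 4.60 and 6.53 with siPcif1, a change of -0.18. Without ATRA it had 3.09, 4.55 and 7.18 with siScram and 2.12, 2.52 and 3.16 with siPcif1, a change of -0.75. With ATRA it had 3.29, 5.60 and 4.79 with siScram and 8.66, 6.23 and 6.26 with siPcif1, a change of 0.56 and the only one of the 3 without overlap. There the authors called it in siPcif1 alone, so it was listed only through the group in which it was high. The limma adjusted p values were 0.922, 0.178 and 1.00. At 51392313 (ggAct) the groups overlapped in every table. Its RML with ATRA was 6.29, 5.69 and 5.21 with siScram and 6.81, 5.80 and 6.25 with siPcif1, a change of 0.12 ± 0.30 (SE). In HEK293T it was 5.18, 8.42 and 7.11 with siScram and 5.31, 4.76 and 10.9 with siPcif1, a change of -0.05 ± 0.46 (SE), and without ATRA 4.02, 5.89 and 5.91 with siScram and 2.00, 5.93 and 4.97 with siPcif1, a change of -0.36 ± 0.40 (SE). Each of these 3 changes turned sign after centring on library medians. Over all RBM15B sites the median change was 0.12 in HEK293T, -0.48 in BE(2)-C without ATRA, where 19 of 20 were lower, and 0.17 with ATRA, where the medians of all sites were -0.08, -0.43 and 0.12. The exception in BE(2)-C without ATRA was 51394013, with 3.56, 3.80 and 9.39 with siScram and 4.95, 5.85 and 6.50 with siPcif1.

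**Figure D4:**
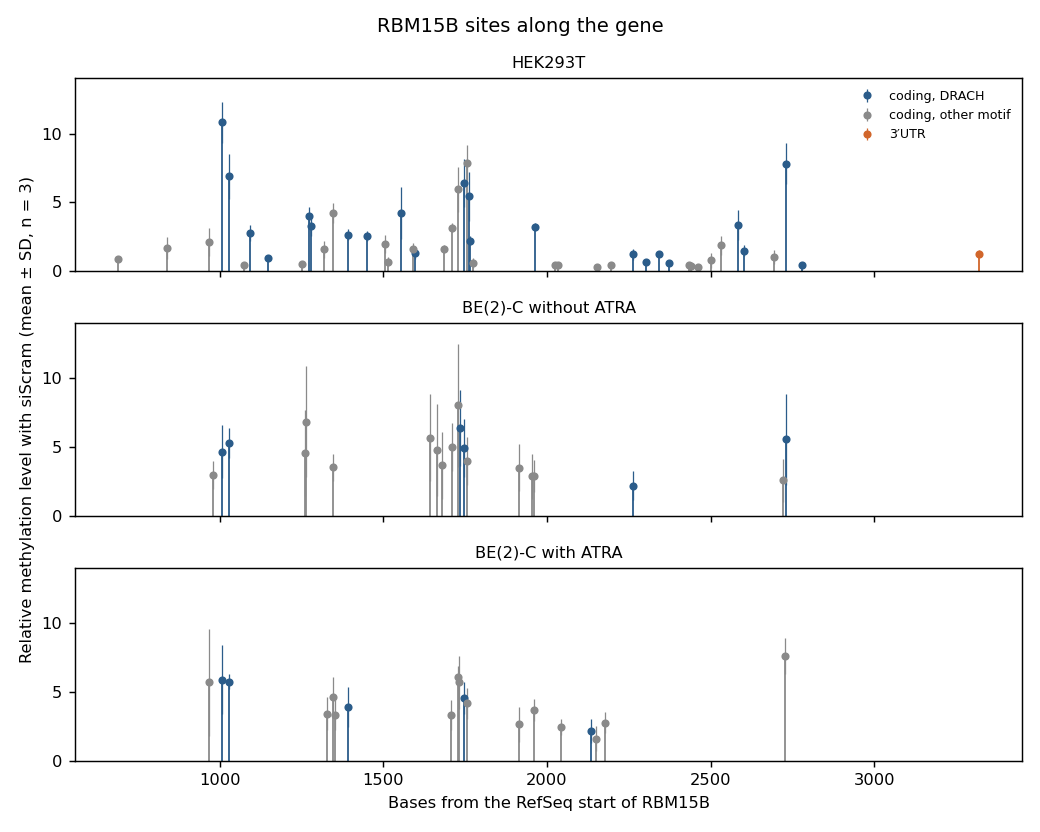
Mean relative methylation level with siScram (± SD, n = 3) of each RBM15B site against its distance from the RefSeq start, in the 3 tables, coloured by region and motif. Sites gather near 1006 to 1029 bases and near 1728 to 1756 bases in all 3 tables, and HEK293T lists more of the low sites toward the end of the gene.

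RBM15 had 25 coding sites in HEK293T, of which 20 were DRACH, and 2 in BE(2)-C without ATRA. The highest was 110340859 of chromosome 1 (agAct), with 5.72, 7.81 and 15.1 with siScram and 6.06, 9.86 and 23.7 with siPcif1 and a change of 0.35 ± 0.58 (SE). Individual RBM15 sites had changes in both directions in HEK293T. At 110340794 (ggAcc) the RML was 3.05, 16.7 and 7.01 with siScram and 2.57, 1.97 and 1.50 with siPcif1, a change of -1.72 (limma adjusted p 0.277), and at 110340316 (agAct) the change was -1.31 (adjusted p 0.334). Near the end of the listed stretch, 110342070 (ttAgg) was higher with siPcif1, at 1.91, 0.867 and 1.75 with siScram and 3.18, 4.26 and 4.06 with siPcif1, a change of 1.24 ± 0.38 (SE, adjusted p 0.247). These 3 sites missed the adjusted threshold although siScram and siPcif1 libraries were fully separated at each. The authors called 110340794 in siScram alone and 110342070 in siPcif1 alone, so each of these was listed only through the group in which it was high. One of the RBM15 sites in BE(2)-C without ATRA, 110341512 (tcAga), had 5.01, 8.01 and 17.4 with siScram and 2.48, 4.57 and 3.31 with siPcif1. The change was -1.29 ± 0.42 (SE) with a limma adjusted p of 0.0558, just outside the threshold, and -0.80 after centring (adjusted p 0.246). The other RBM15 site there, 110341123, changed by -0.98 (limma adjusted p 0.152). The authors called both in siScram alone, so they were listed only through the group in which they were high.

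The scaffold VIRMA had 7 internal sites in HEK293T, 6 coding and 1 in the 3'UTR, and all 7 were DRACH. The highest lay at 94519210 of chromosome 8, with 5.59, 5.10 and 7.23 with siScram and 22.0, 7.06 and 5.97 with siPcif1. The high mean with siPcif1 came from 1 library, and the change was 0.70 ± 0.54 (SE). A weak site at 94511532 had 0.305, 0.542 and 0.701 with siScram and 1.68, 0.815 and 0.892 with siPcif1, without overlap, and a change of 0.79 (limma adjusted p 0.310). The authors called this weak site in siPcif1 alone, so it was listed only through the group in which it was high. A single coding site at 94526819 in BE(2)-C without ATRA had 2.49, 5.19 and 5.09 with siScram and 3.34, 1.31 and 3.15 with siPcif1, a change of -0.63 (limma adjusted p 0.227). That site was called by the authors in siScram alone, and so listed only through the group in which it was high. ZC3H13 had 6 coding DRACH sites in HEK293T, and all 6 log2 changes were above 0, from 0.15 to 0.99, and limma adjusted p of at least 0.472. The smallest, at 45967764, went with a lower mean RML with siPcif1 (3.85 ± 1.61) than with siScram (4.03 ± 3.52, SD, n = 3). The largest was 45985602 of chromosome 13 (agAct), with 5.85, 5.01 and 3.95 with siScram and 5.00, 13.2 and 14.98 with siPcif1, where 1 siPcif1 library stayed among the siScram values. Its single site with ATRA, at 45985606, had 4.76, 5.31 and 3.47 with siScram and 3.45, 8.04 and 5.21 with siPcif1, and was called by the authors in siPcif1 alone. CBLL1 had 2 coding sites in HEK293T, both DRACH and within a span of 64 bases, with changes of -0.56 at 107758951 (6.10, 7.21 and 1.93 with siScram and 3.92, 2.51 and 2.50 with siPcif1) and -0.76 at 107759014 of chromosome 7. Both were called by the authors in siScram alone, so they were listed only through the group in which they were high. In BE(2)-C without ATRA its only site, 107759009, had 1.92, 3.42 and 5.68 with siScram and 1.89, 3.80 and 5.21 with siPcif1, nearly equal in the groups.

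METTL14, the obligate partner of METTL3, had no row among the sites analysed here in any of the 3 tables. The tables list only sites that the authors called in at least 1 group, so this bounds neither the methylation nor the expression of METTL14.

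METTL16, the separate writer, had 10 sites in HEK293T (9 coding, 1 in the 3'UTR) and 1 in BE(2)-C without ATRA. Only 4 of the 10 were DRACH. The strongest were 2420396 of chromosome 17 (gaAct), with 12.8, 11.6 and 7.56 with siScram and 6.61, 16.1 and 12.3 with siPcif1 and a change of 0.07 ± 0.48 (SE), and 2420193 (ggAcc), with 19.8, 6.07 and 13.8 with siScram and 8.82, 5.14 and 7.21 with siPcif1 and a change of -0.76 ± 0.52 (SE). Both had overlapping groups. At 2420123 (ggAca) the siPcif1 libraries were all higher, with 3.56, 5.16 and 3.73 with siScram and 5.88, 7.47 and 8.12 with siPcif1, a change of 0.75 (limma adjusted p 0.496). The single BE(2)-C site, 2420196, had 4.28, 3.34 and 4.27 with siScram and 5.56, 5.06 and 2.58 with siPcif1.

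None of the writer-gene sites carried ACAGA, the core of the sequence that METTL16 methylates, as its 5-base motif. The MAT2A transcript, a known METTL16 substrate that encodes the enzyme making the methyl donor S-adenosylmethionine, carried 4 ACAGA sites in its 3'UTR among 9 sites in HEK293T, 4 among 6 in BE(2)-C without ATRA and 1 of 1 with ATRA. In all tables ACAGA was rare, at 0.198%, 0.477% and 0.357% of sites. The strongest lay at 85545017 of chromosome 2. In HEK293T it had 3.89, 3.54 and 7.28 with siScram and 3.33, 4.52 and 4.39 with siPcif1, a change of -0.19 ± 0.42 (SE). In BE(2)-C without ATRA it had 3.59, 6.23 and 6.04 with siScram and 3.35, 3.93 and 3.26 with siPcif1, a change of -0.50 that is -0.01 after centring. With ATRA it had 5.60, 6.83 and 3.72 with siScram and 7.13, 5.69 and 3.80 with siPcif1, a change of 0.03 ± 0.32 (SE). The limma adjusted p values were 0.920, 0.348 and 1.00. The weaker ones, at 85543815, 85544602 and 85544787, had mean RML with siScram of 0.991 ± 0.493, 0.609 ± 0.272 and 0.964 ± 0.417 in HEK293T. ACAGA sites also appeared in the U6 genes RNU6-9 and RNU6-2, at 0.935 ± 0.545 and 1.13 ± 0.384 with siScram in HEK293T, but U6 copies are near-identical and their reads cannot be assigned with certainty.

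Most writer-gene sites of the BE(2)-C tables were not at a base listed in HEK293T. Of the 48 sites in BE(2)-C without ATRA, 15 were at exactly the same base as in HEK293T (31.2%, against 31.1% of all sites of the table), and of the 36 with ATRA, 13 (36.1%, against 33.4%). The BE(2)-C tables shared 15 writer-gene positions with each other (31.2% and 41.7% of their lists). The motif also differed. Of the internal writer-gene sites, 61.7% were DRACH in HEK293T (all genes 60.3%), but 25.5% in BE(2)-C without ATRA (22.5%) and 22.2% with ATRA (24.8%). Among the 35 internal writer-gene sites without DRACH in BE(2)-C without ATRA, 6 (17.1%) had a HEK293T DRACH site 3 or 4 bases downstream and 0 had one the same distance upstream. For all genes these shares were 5.72% and 0.701%. With ATRA 8 of 28 (28.6%) had one downstream and 0 upstream, against 10.1% and 0.72% for all genes. RBM15B and WTAP had 48 and 28 HEK293T sites, where the median gene had 4. The shares were not adjusted for the number of HEK293T sites in a gene, so the higher shares cannot be read as particular to the writer genes. It could not be settled from the files whether the processing of the BE(2)-C tables placed their sites some bases upstream, so the motifs, DRACH shares and shared positions of BE(2)-C are those of the bases as listed.

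Single sites give examples of these distances, with levels that were not normalized together. In RBM15B, 51394010 (motif taAgg) with ATRA had 7.60 ± 1.32 with siScram, and 3 bases downstream the HEK293T DRACH site 51394013 (ggAca) had 7.81 ± 1.47 (SD, n = 3). In BE(2)-C without ATRA 51394013 itself was listed, at 5.59 ± 3.29 with siScram. The WTAP sites 159755177 and 159748881 of both BE(2)-C tables lie 3 bases before the HEK293T DRACH sites 159755180 (ggAct) and 159748884 (agAct). Levels with siScram were 6.76 ± 2.92 at 159755177 without ATRA and 1.97 ± 0.692 at 159755180 in HEK293T. In METTL16, on the minus strand, the BE(2)-C site 2420196 (ccAgg) lies 3 bases before 2420193 (ggAcc), and in ZC3H13 45985606 lies 4 bases before 45985602. The RBM15 site 110341512, with the adjusted p of 0.0558 above, lies 4 bases before the HEK293T DRACH site 110341516 (agAca), which had 3.91, 9.11 and 4.73 with siScram and 5.88, 18.2 and 7.62 with siPcif1 there and a change of 0.73. The counts of shared positions above take identical bases only.

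**Figure D5:**
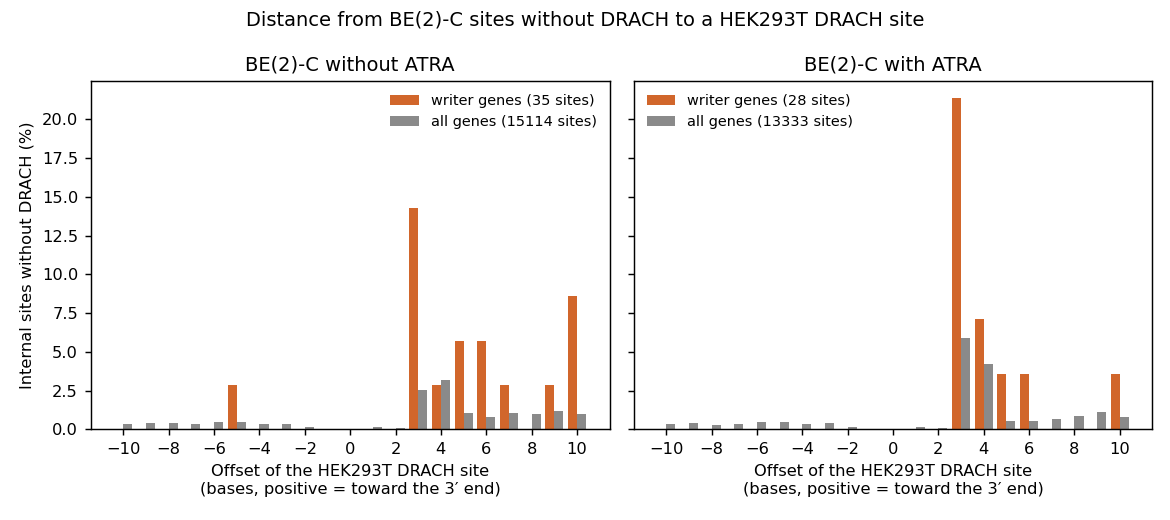
Share of internal BE(2)-C sites without DRACH that have a HEK293T DRACH site at each offset from -10 to 10 bases, for the writer genes and for all genes. For all genes the bars at 3 and 4 bases downstream are the highest in both BE(2)-C tables. For the writer genes the bar at 3 is the highest. Without ATRA their bar at 4 holds a single site (2.86%) and is lower than those at 5 and 6 (5.71% each) and at 10 (8.57%).

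The groups in which the authors called the writer-gene sites differed between the tables. In the authors' deposited tables, each group has its own DESeq2 p-value for a site, and at a p of at most 0.05 the writer-gene sites of BE(2)-C without ATRA were called in siScram alone in 70.8% of cases (50.1% of all sites) and in both groups in 20.8% (40.8%). With ATRA the authors' deposited table had 69.4% called in siPcif1 alone (40.4% of all sites) and 19.4% in both (41.3%). In HEK293T 64.2% were called in both groups (60.2%). A site called in 1 group only enters its table through that group, so these sites were chosen in part by the direction of their change.

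The remaining genes of the pathway were taken as a list of 20: PCIF1 and other RNA methyltransferases, the erasers FTO and ALKBH5, reader proteins of the YTH and IGF2BP families, HNRNPA2B1 and HNRNPC, and the S-adenosylmethionine enzymes. In HEK293T 17 of the 20 had sites, 131 in all, and 0 passed the adjusted threshold. At the unadjusted level 7 were lower (5.34%, against 9.31% of all sites) and 3 higher (2.29%, against 2.79%). The 22 sites in 5'UTRs had a median change of -0.62, against -0.65 for all 5'UTR sites, and the 108 internal sites had 0.06, against 0.01. In BE(2)-C without ATRA 9 genes had 145 sites, of which 0 passed (against 3.71% of all sites) and 14 were lower at the unadjusted level (9.66%, against 26.2%). With ATRA 11 genes had 49 sites, of which 0 passed and 1 was higher at the unadjusted level (2.04%, against 2.03%).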

How the data were processed

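The authors deposited 1 table per context with a ratio, the RML, for each m6ACE library, together with p-values per group, a log2 fold change and its p-value, per the file headers. The deposited fold change runs siScram over siPcif1 and its p ends at 0.5, as a one-sided test does. Per the submitters' processing notes, bcl2fastq 2.20, cutadapt 3.7, Bowtie2, STAR and DESeq2 were used with hg38, and the notes do not say for which step. The name of the table without ATRA mentions DMSO, which the labels do not, and the labels call HEK293T neuroblastoma. Input libraries have no columns, and depth is unknown.

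RML was analysed as log2(RML + pseudocount), the pseudocount being the 5th percentile of each table (0.298 in HEK293T, 0.502 and 0.857 in BE(2)-C without and with ATRA), which understates changes of low sites. Each table was fitted on its own with limma 3.58.1 (R 4.3.3, lmFit, eBayes with a trend), with Benjamini-Hochberg adjustment over all its sites. In BE(2)-C without ATRA the fit had 91420 degrees of freedom. The code was tested on simulated data.

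The members and the gene lists were chosen with earlier results of these data known. Named sites were, per gene and table, the 5'UTR and the internal site of highest mean RML, the site of smallest p, every site past the threshold and the sites in all 3 tables, 55 in all. The other sites named, and the WTAP blocks, were chosen after their values had been seen. The settings tried were centring on library medians, other pseudocounts, a filter at the 25th percentile, no variance trend, the replicate number as a block, the deposited p doubled, and leaving out each library.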

Additional observations from a re-analysis of the deposited data

How the results depend on the processing

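Of 48 writer-gene sites in BE(2)-C without ATRA 1 passed the threshold, and this count was 0 after centring on library medians, 0 without a variance trend, 0 with the deposited p doubled, 2 with the filter at the 25th percentile and 6 with the replicate block. Leaving out single libraries gave 0 to 27, with 27 without siScram replicate 1 and 0 without siScram replicate 2 or siPcif1 replicate 1. The METTL3 +1 site of that table (main -2.13, limma adjusted p 0.00428) lost its call at -1.65 after centring, at -2.13 without a trend (adjusted p 0.135) and at -1.90 with the deposited p (adjusted p 0.368), and ran from -2.70 to -1.33 over left-out libraries, which is also the range of the 5'UTR median there. The median of internal sites there was -0.08 after centring and -0.79 to -0.41 over left-out libraries. In HEK293T the 5'UTR median of -0.05 became -1.81 under the filter, which removes the low METTL3 sites, 0.07 after centring, and -0.40 to 0.02 over left-out libraries. METTL3 +12 ran from -2.88 to -1.87, and the count of called sites was 0 under each setting in HEK293T and with ATRA. Site by site, samples of the same replicate number did not deviate together (correlations over sites of 0.020, 0.015 and 0.004 in HEK293T, 0.116, 0.005 and 0.009 in BE(2)-C without ATRA, -0.309, 0.062 and -0.258 with ATRA). These correlations cannot show a shift common to all sites of a library, so pairing of that kind was not tested. The numbers were not taken to pair samples. Under the block METTL3 +1 in BE(2)-C without ATRA kept its call at -2.13 (limma adjusted p 0.000168). Small changes turned sign after centring: RBM15B 51393012 (0.07) and 51392313 (0.07) and METTL3 21511240 (0.10) and 21511269 (0.04) in HEK293T, CBLL1 107759009 (0.48, and 0.00 with the 1st-percentile pseudocount), RBM15B 51392313 (0.12) and WTAP 159748714 (0.11) in BE(2)-C without ATRA, and RBM15B 51394010 (-0.11) and 51392313 (-0.04) with ATRA. Over left-out libraries the sign also turned in HEK293T for METTL3 21503382 (-0.10 to 0.32), 21511240 (-0.28 to 0.33), 21511254 (-0.08 to 0.30) and 21511269 (-0.25 to 0.02), RBM15B 51393012 (-0.23 to 0.14), 51392313 (-0.41 to 0.17) and 51393040 (-0.07 to 0.34), METTL16 2420396 (-0.20 to 0.43), WTAP 159727127 (-0.63 to 0.91) and RBM15 110340859 (-0.18 to 0.78). It did so without ATRA for CBLL1 107759009 (-0.34 to 0.35), METTL16 2420196 (-0.10 to 0.39) and RBM15B 51392313 (-0.62 to 0.06), and with ATRA for RBM15B 51392290 (-0.35 to 0.23), 51392631 (-0.29 to 0.27) and 51394010 (-0.22 to 0.19) and ZC3H13 45985606 (-0.06 to 0.47). Apart from the effect of the filter, the cause of these changes was not tested. Without depth per site, no counting error can be given.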
